A study of Mus musculus with 24 samples.

Results

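Neurexins, neuroligins and contactin-associated proteins (CNTNAPs) are adhesion proteins of synapses and axons, and 9 of their genes were followed here out of the 36605 genes in the count table: *Cntnap1*, *Cntnap2*, *Cntnap4*, *Cntnap5a*, *Cntnap5b*, *Nrxn2*, *Nrxn3*, *Nlgn1* and *Nlgn3*. *Cntnap5b* was chosen by its higher level in mice that lack *Egr1* in the neural lineage, and the other 8 were named as its relatives to ask whether they share that difference. Its values in comparisons with those mice are therefore a description with no test. Another 3 genes of these families, *Nlgn2*, *Cntnap3* and *Cntnap5c*, are given beside them, so that 11 relatives of *Cntnap5b* are described. All 12 passed the filter on low counts in every comparison.

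Hippocampal polyA RNA of 24 adult mice was sequenced, with 6 mice, 3 of each sex, for each of 4 genotypes. Egr1 wtNes Cre- mice, labelled wt (-), carry neither alteration. Egr1 fNes Cre- mice, labelled FF (-), carry the conditional allele of the strain Egr1_tm1a_A04 (C57BL/6 N-Egr1/Tcp), with loxP sites, and no Cre. Egr1 wtNes Cre+ mice, labelled wt (+), carry the Nestin-Cre transgene B6.Cg-Tg(Nes-Cre)1Kln/J with normal *Egr1*, and Egr1 fNes Cre+ mice, labelled FF (+), carry both and are called Egr1cKO. The Nestin promoter drives Cre in neural precursors, so deletion reaches neurons and the glia of that lineage but not microglia or endothelium. The deletion is present from development on, and is not limited to 1 region or cell type of the brain. The mouse numbers in the labels form 1 run for the Egr1 wt mice and another, higher run for the Egr1 f mice, and an effect of the floxed allele cannot be told apart from one of these runs.

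The counted reads per mouse ran from 18817037 to 25335139 in Egr1 wtNes Cre- mice with a median of 23308300, and from 18413714 to 23129120 in Egr1 wtNes Cre+ mice with a median of 19873947. They ran from 18025168 to 34955004 in Egr1 fNes Cre- mice with a median of 23529560, and from 20644829 to 27677816 in Egr1cKO mice with a median of 23896100. Levels are in CPM, the counts after scaling by library size with edgeR's TMM factors. Differences are log2 fold changes (log2FC) with their standard error (SE), and adjusted *p* values come from edgeR's quasi-likelihood F test, by the Benjamini-Hochberg method over all genes tested, unless DESeq2 is named. A gene passed when the fold change was at least 1.2 and the adjusted *p* at most 0.05. For an interaction the adjusted *p* alone decided.

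Neurexins sit mainly on presynaptic membranes and reach across the synaptic cleft to neuroligins and other partners on the postsynaptic side, a contact that helps to organize and specify synapses. CNTNAPs resemble neurexins in their extracellular domains. CNTNAP1 and CNTNAP2 pair with contactins beside the nodes of Ranvier of myelinated axons, CNTNAP4 is known from inhibitory interneurons, and little is known of the CNTNAP5 proteins.

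*Egr1* was read first, as a check of the genotype labels. Its level ran from 63.8 to 149 CPM in Egr1 wtNes Cre- mice with a median of 111, from 47.7 to 125 with a median of 85.2 in Egr1 wtNes Cre+ mice, and from 67.0 to 147 with a median of 83.3 in Egr1 fNes Cre-. In Egr1cKO mice it ran from 4.86 to 10.2 CPM with a median of 8.18, so that each of the 6 lay below all 18 others. *Egr1* fell in Egr1cKO mice against the 18 others, with a log2FC of -3.59 (SE 0.23, adjusted *p* 1.2e-11). The labels give the tissue as hippocampus and also carry the cell type term endocrine. Neuronal markers were abundant, with *Snap25* at a mean of 1772 CPM, and the dentate gyrus marker *Prox1* stood at 132 CPM and the CA1 marker *Mpped1* at 209 CPM. Of the 7 pituitary hormone genes listed, 6 were in the table, and the most abundant, *Tshb*, had a mean of 1.24 CPM, with *Gh* at 0.0482 and *Prl* at 0.0638. The values are those of brain tissue with hippocampal markers, and defining markers of the pituitary were near 0. Egr1cKO male 3 had the lowest summed level of dentate gyrus markers of all 24 mice, 141 CPM, against 271 to 411 CPM in the other Egr1cKO mice, and its mitochondrial sum, 59640 CPM, was the highest of its group, where the others had up to 46958 CPM. Among the other genotypes, Egr1 wtNes Cre+ female 1 was nearly as low in dentate gyrus markers at 158 CPM. Egr1 wtNes Cre+ male 1 had a higher mitochondrial sum, 64795 CPM.

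Per kilobase of exon, the level of these 12 family genes spanned from 1.04 CPM per kb for *Cntnap3* to 52.3 for *Nlgn2*. The highest level per kb among the 9 genes was that of *Cntnap1* (51.1 ± 5.73, SD, n = 24). It encodes the protein that anchors myelin loops beside the node, and its spread overlapped that of *Nlgn2* (52.3 ± 4.08). *Nrxn2* (24.1 ± 2.75) came next, followed by *Nrxn3* (15.1 ± 2.00) and *Cntnap2* (13.7 ± 2.28), whose difference was smaller than the sum of their SDs. *Nlgn3* stood at 8.47 ± 0.943 CPM per kb, above *Nlgn1* at 6.07 ± 1.02. *Nlgn1* overlapped in spread with *Cntnap5c* (5.30 ± 1.35), and *Cntnap5c* with *Cntnap5a* (4.29 ± 0.616). *Cntnap4* (2.60 ± 0.656) and *Cntnap5b* (2.36 ± 0.634) overlapped in spread and lay below the other members. These SDs are between mice of all genotypes, and genes were not compared within each mouse, so an overlap does not show equal levels. *Cntnap5b* had 157 to 472 reads in a mouse, against 5729 to 12276 for *Nrxn2*.

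*Cntnap5b* (ENSMUSG00000067028) lies on chromosome 1 of GRCm38, from 99772765 to 100485942 on the + strand. Its level had a lowest, median and highest value of 10.8, 12.4 and 13.7 CPM in Egr1 wtNes Cre- mice, 7.54, 9.40 and 14.4 in Egr1 wtNes Cre+ mice, 7.81, 10.03 and 15.2 in Egr1 fNes Cre- mice, and 11.5, 17.3 and 18.5 in Egr1cKO mice. Of the 6 Egr1cKO mice, 4 lay above all 18 others, the 3 females at 17.98, 18.51 and 16.96 CPM and male 1 at 17.6 CPM. Males 2 and 3, at 14.6 and 11.5 CPM, lay within the range of the other genotypes. An Egr1cKO mouse had the higher value in 101 of 108 pairs with another mouse (93.5%). The means were 12.3 ± 1.26 CPM (SD, n = 6) in Egr1 wtNes Cre-, 9.997 ± 2.36 in Egr1 wtNes Cre+, 10.8 ± 2.90 in Egr1 fNes Cre- and 16.2 ± 2.66 in Egr1cKO mice. Among the groups without Egr1cKO mice, no mean differed from another by more than the sum of their SDs, but 5 of 6 Egr1 wtNes Cre+ mice lay below every Egr1 wtNes Cre- mouse. The difference that chose the gene, Egr1cKO mice against the 18 others, was a log2FC of 0.56. Its 95% interval, 0.30 to 0.82, does not allow for that choice and is a description, not a test.

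**Figure D1:**
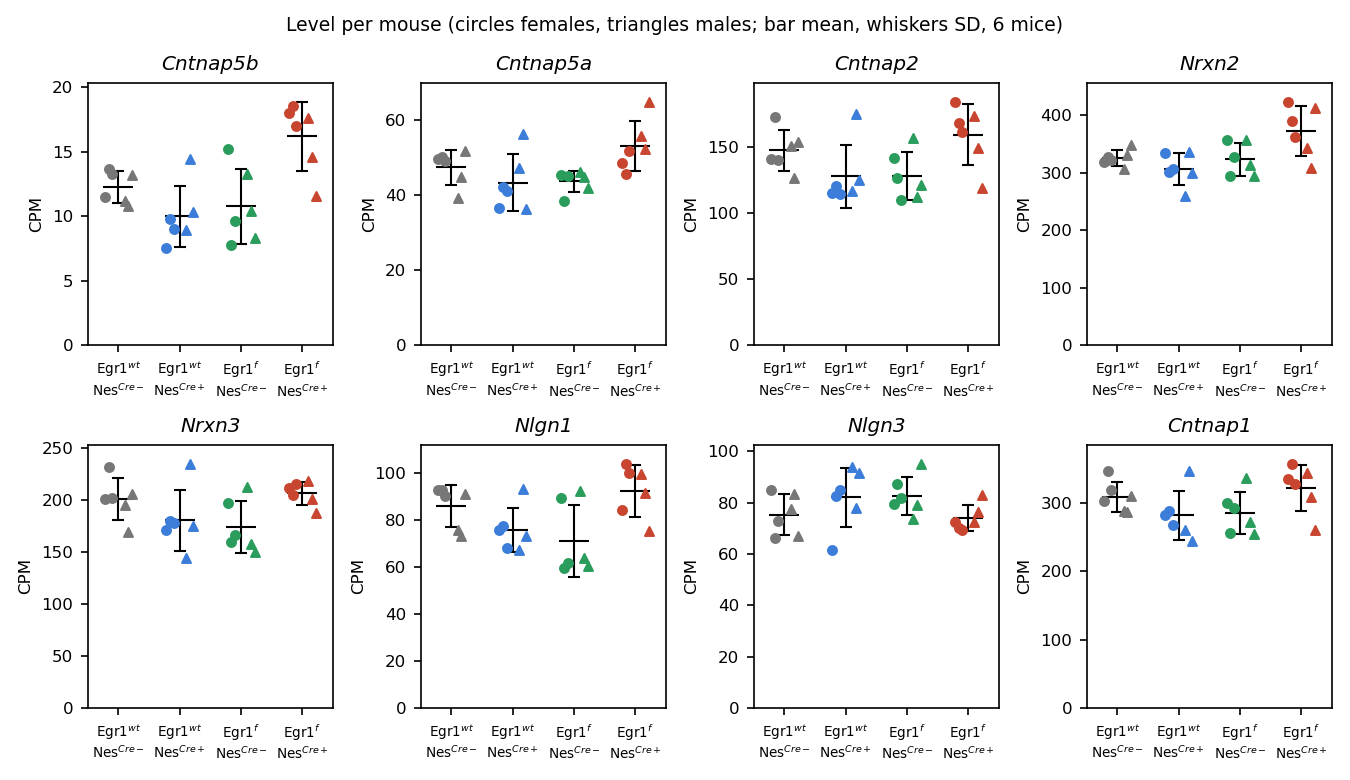
Level in CPM of *Cntnap5b* and 7 relatives in each mouse by genotype, with circles for females, triangles for males, bars for the mean and whiskers for the SD of 6 mice. For *Cntnap5b*, 4 of 6 Egr1cKO mice lie above all 18 others, for *Nrxn2* also 4 and for *Nlgn1* 3, while *Nlgn3* has no Egr1cKO mouse above the others.

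Among the relatives, the neurexins come first. *Nrxn2* (ENSMUSG00000033768), a presynaptic receptor gene on chromosome 19, had a lowest, median and highest level of 307, 325 and 349 CPM in Egr1 wtNes Cre- mice, 261, 304 and 337 in Egr1 wtNes Cre+ mice, 294, 320 and 357 in Egr1 fNes Cre- mice, and 309, 377 and 423 in Egr1cKO mice. The 3 Egr1cKO females and male 3 lay above all 18 others, but male 2 at 309 CPM lay below 11 of them. Against the 18 others the log2FC was 0.23 (SE 0.06, adjusted *p* 0.179), which did not pass. *Nrxn3* (ENSMUSG00000066392), which encodes another presynaptic neurexin, ran from 187 to 218 CPM in Egr1cKO mice with a median of 209, from 170 to 232 in Egr1 wtNes Cre- with a median of 202, from 145 to 234 in Egr1 wtNes Cre+ with a median of 176, and from 150 to 213 in Egr1 fNes Cre- with a median of 163. No Egr1cKO mouse exceeded all others, and the log2FC of 0.16 (SE 0.08) had an adjusted *p* of 0.336.

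The neuroligins, their postsynaptic partners, had differences of either sign. *Nlgn1* (ENSMUSG00000063887), which is found mostly at excitatory synapses, had a lowest, median and highest level of 73.4, 90.8 and 93.0 CPM in Egr1 wtNes Cre- mice, 67.3, 74.5 and 93.2 in Egr1 wtNes Cre+ mice, 59.7, 62.8 and 92.5 in Egr1 fNes Cre- mice, and 75.2, 95.8 and 104 in Egr1cKO mice. Egr1cKO females 2 and 3 and male 1 lay above all others, and the Egr1 wtNes Cre- mice overlapped the rest of the group. The log2FC against the 18 others was 0.26 (SE 0.10, adjusted *p* 0.234). *Nlgn3* (ENSMUSG00000031302), present at excitatory and inhibitory synapses, had a median of 72.5 CPM in Egr1cKO mice (69.4 to 82.9), against 75.3 in Egr1 wtNes Cre- (66.2 to 84.9), 83.7 in Egr1 wtNes Cre+ (61.7 to 93.9), while Egr1 fNes Cre- mice had 80.6 (73.6 to 94.9). It was the 1 of these relatives with a lower level in Egr1cKO mice, where the higher value fell to the Egr1cKO mouse in only 28 of 108 pairs, and its log2FC of -0.11 (SE 0.07, adjusted *p* 0.460) did not pass. That sign turned to 0.01 when the ribosomal protein genes described further on were a covariate. *Nlgn2*, the neuroligin of inhibitory synapses, gave 0.12 (SE 0.05, adjusted *p* 0.261).

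*Cntnap5a* (ENSMUSG00000070695), the closest relative of *Cntnap5b* by name and also on chromosome 1, had a lowest, median and highest level of 39.1, 49.3 and 51.8 CPM in Egr1 wtNes Cre- mice, 36.4, 41.6 and 56.4 in Egr1 wtNes Cre+ mice, 38.5, 45.0 and 46.3 in Egr1 fNes Cre- mice, and 45.7, 52.1 and 64.9 in Egr1cKO mice. Only Egr1cKO male 3 lay above all others, the mouse with the lowest *Cntnap5b* of its group. Its log2FC was 0.25 (SE 0.08, adjusted *p* 0.201). *Cntnap2* (ENSMUSG00000039419), whose protein clusters potassium channels beside the node, had medians of 146 CPM in Egr1 wtNes Cre-, 118 in Egr1 wtNes Cre+, 123 in Egr1 fNes Cre- and 165 in Egr1cKO mice, whose range of 119 to 184 overlapped all 3 other groups. Its log2FC was 0.25 (SE 0.09, adjusted *p* 0.232). *Cntnap1* (ENSMUSG00000017167) gave 0.15 (SE 0.07, adjusted *p* 0.319) from 261 to 357 CPM in Egr1cKO mice and 245 to 347 in the 18 others. *Cntnap4* (ENSMUSG00000031772) gave 0.19 (SE 0.15, adjusted *p* 0.556), with 12.9 to 21.3 CPM in Egr1cKO mice within the 9.98 to 25.3 of the others. *Cntnap5c* and *Cntnap3*, the latter with the fewest reads of the family, gave 0.20 (SE 0.16) and 0.23 (SE 0.21), with no Egr1cKO mouse above all others. When 1 Egr1cKO mouse was left out, *Cntnap3* ran from 0.09 to 0.34.

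In the comparison of Egr1cKO mice with the 18 others, then, 10 of the 11 relatives described had a higher level and 1 a lower one. Their log2FC ran from -0.11 to 0.26 with a median of 0.20, against 0.56 for *Cntnap5b* and -0.01 for the median of all 18433 genes tested. Of the 9 genes, 0 passed the test with edgeR (0.00543% of all genes passed, which is *Egr1* alone). At an unadjusted *p* under 0.05, 5 of the 8 other than *Cntnap5b* were higher and 0 lower (15.1% of all genes). DESeq2 passed 0 of these 8 (0.182% of all genes). It did pass *Cntnap5b*, but as this contrast chose the gene, that is read as a description. DESeq2 gave *Nrxn2* an adjusted *p* of 0.0665 and *Cntnap5a* 0.139. Without Egr1cKO male 3, 215 genes passed with edgeR (1.15% of all genes) and no relative did, while *Cntnap5b* gave 0.64, again as a description; this is the mouse with the low dentate gyrus sum. The log2 level of *Cntnap5b* minus the mean log2 level of the 11 relatives was -2.35 ± 0.20 (SD, n = 6) in Egr1cKO mice, -2.65 ± 0.07 in Egr1 wtNes Cre-, -2.81 ± 0.19 in Egr1 wtNes Cre+ mice, and Egr1 fNes Cre- mice had -2.70 ± 0.20. These values restate the choice of the gene and are no further support for it. In bulk tissue, fewer cells of a type and less RNA per cell cannot be told apart.

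**Figure D2:**
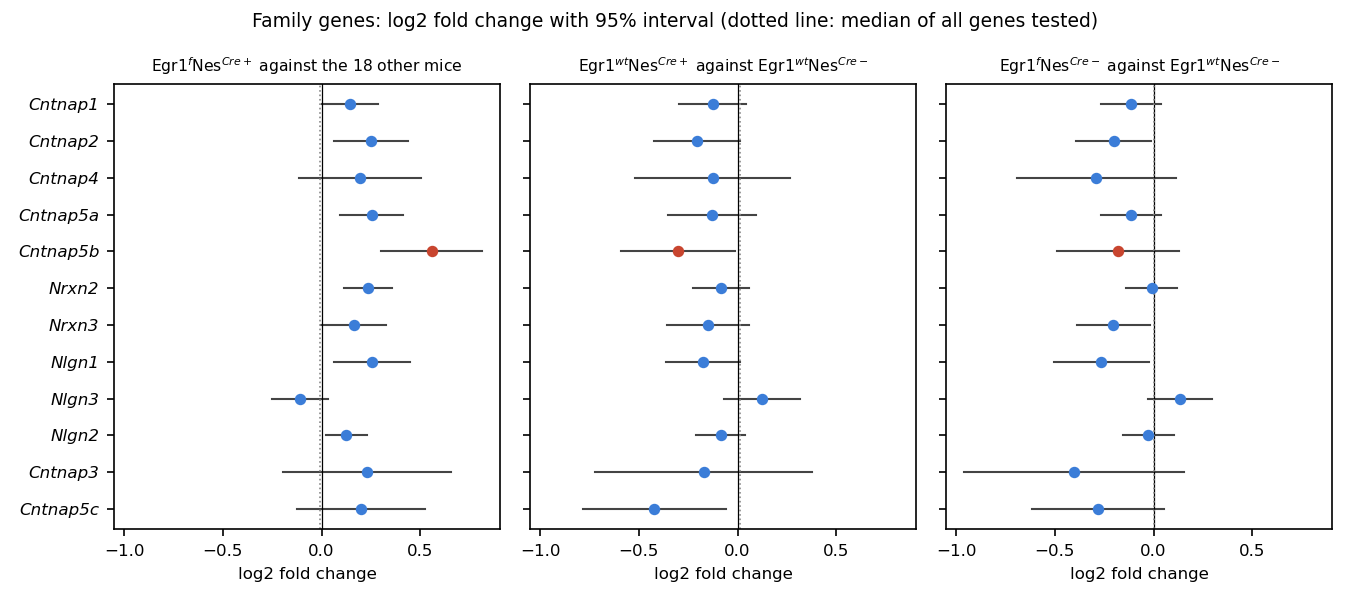
Log2FC (points) with 95% intervals (lines) of the 12 family genes in 3 comparisons, with *Cntnap5b* in red and the median of all genes tested as a dotted line. The interval of *Cntnap5b* in Egr1cKO mice against the 18 others is a description, since that comparison chose the gene. In Egr1cKO mice against the 18 others 11 of 12 points lie above 0 with *Cntnap5b* at 0.56, and in both comparisons with Egr1 wtNes Cre- mice 11 of 12 lie below 0; *Nlgn3* is the exception in each, and none passed with edgeR.

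The 3 control genotypes were then compared with each other. These comparisons did not choose the gene, although their 18 mice were the other side of the one that did. In Egr1 wtNes Cre+ against Egr1 wtNes Cre- mice, which shows the transgene without a floxed allele, *Cntnap5b* had a log2FC of -0.30 (SE 0.14, adjusted *p* 0.754). Its 11 relatives ran from -0.42 (*Cntnap5c*) to 0.12 (*Nlgn3*) with a median of -0.13, and all but *Nlgn3* were negative. Not all of these signs held when 1 mouse was left out, as *Cntnap3* ran from -0.32 to 0.12 and *Cntnap4* from -0.24 to 0.04. With edgeR 0 of the 9 genes passed, as did 0% of the 17167 genes tested. At an unadjusted *p* under 0.05, 1 was lower, *Cntnap5b*, and 0 were higher (6.05% of all genes), and DESeq2 passed 0 of them (0.139% of all genes). Without Egr1 wtNes Cre+ male 2, 229 genes passed (1.31% of all genes). Among them were *Cntnap2* at -0.32 (SE 0.07, adjusted *p* 0.0382) and *Cntnap5c* at -0.63 (SE 0.12, adjusted *p* 0.0266). That mouse had the highest level of both genes in its group, so leaving it out lowers the group by construction. Both values are therefore a description and no support for a lower level. With no filter on low counts 156 genes passed (0.456% of all genes), *Cntnap5c* among them (adjusted *p* 0.0143).

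In Egr1 fNes Cre- against Egr1 wtNes Cre- mice, which shows the floxed allele together with the run of mouse numbers, *Cntnap5b* had a log2FC of -0.18 (SE 0.15, adjusted *p* 0.655), which ran from -0.31 to -0.09 when 1 mouse was left out. Over 8 other settings it ran from -0.21 to 0.03, so its sign was not stable. The relatives ran from -0.40 (*Cntnap3*, -0.55 to -0.11 with 1 mouse left out) to 0.13 (*Nlgn3*) with a median of -0.20. Among the 9 genes, *Nlgn1* (-0.27, SE 0.11), *Nrxn3* (-0.20, SE 0.09) and *Cntnap2* (-0.20, SE 0.09) were lower at an unadjusted *p* under 0.05. *Cntnap4* gave -0.29 (SE 0.19), which ran from -0.45 to -0.11 when 1 mouse was left out, while *Nrxn2* gave -0.01 (SE 0.06). Again 0 of the 9 passed with edgeR (0% of 17393 genes), those 3 were lower and 0 higher at an unadjusted *p* under 0.05 (9.68% of all genes), and 0 passed with DESeq2 (0.00583% of all genes). With no filter on low counts 163 genes passed with edgeR (0.475% of all genes), *Nlgn1* among them (adjusted *p* 0.0415).

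Both of these comparisons use the same Egr1 wtNes Cre- mice, whose mean levels of *Cntnap5b* and of every relative except *Nlgn3* were the highest of the 3 control genotypes. Set against Egr1 wtNes Cre- mice alone, a control chosen after seeing the data, Egr1cKO mice gave *Cntnap5b* 0.39 and the relatives a median of 0.05, from -0.03 to 0.19, with 9 higher and 2 lower. In that comparison *Nrxn2* stood at 0.19 (SE 0.07), *Nlgn1* at 0.10 (SE 0.08) and *Nrxn3* at 0.04 (SE 0.06). Set against Egr1 wtNes Cre+ mice alone, *Cntnap5b* gave 0.70 and the relatives a median of 0.21, and no member passed with either control.

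Within the mice with the floxed allele, Egr1cKO against Egr1 fNes Cre- mice stayed in 1 run of mouse numbers. *Cntnap5b* gave 0.57 here, again as a description. The relatives had a median of 0.26, with *Nlgn1* at 0.37 (SE 0.12, adjusted *p* 0.255), *Cntnap4* at 0.34 (SE 0.16, adjusted *p* 0.309) and *Nlgn3* at -0.16 (SE 0.07, adjusted *p* 0.277). *Cntnap3* gave 0.44 (SE 0.22, adjusted *p* 0.335), which ran from 0.22 to 0.55 when 1 mouse was left out. Of the 9 genes 0 passed with edgeR (0.0232% of all genes). At an unadjusted *p* under 0.05, 5 of the 8 other than *Cntnap5b* were higher and 1 lower (16.2% of all genes), and DESeq2 passed 0 of the 9 (0.575% of all genes). The 4 genes that passed with edgeR were *Aqp4*, *C4b*, *Egr1* and *Tnc*. Egr1 fNes Cre- male 1 had high levels of several members, and without it 304 genes passed (1.74% of all genes). Among these were *Nlgn1* at 0.48 (adjusted *p* 0.0462), *Cntnap2* at 0.40 (adjusted *p* 0.0464) and *Nrxn3* at 0.33 (adjusted *p* 0.0407). That mouse had the highest *Nlgn1*, *Cntnap2* and *Nrxn3* of its group, so leaving it out lowers the control level of these genes by construction. Their values without it are a description, as is the 0.68 of *Cntnap5b*. With no filter on low counts 808 genes passed (2.36% of all genes), among them *Nlgn1* (adjusted *p* 0.000468), *Cntnap2* (adjusted *p* 0.00564) and *Cntnap5a* (adjusted *p* 0.0372).

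The interaction of the floxed allele and Nestin-Cre asks whether both together differ from the sum of each alone. It uses all 24 mice, so it shares its mice with every comparison above. *Cntnap5b* gave 0.88, as a description. The largest values among the relatives were those of *Cntnap5c* at 0.69 (SE 0.27, adjusted *p* 0.176) and *Cntnap3* at 0.62 (SE 0.36, adjusted *p* 0.351). *Nlgn1* gave 0.56 (SE 0.16, adjusted *p* 0.150), *Cntnap2* 0.53 (SE 0.16, adjusted *p* 0.150), *Cntnap4* 0.47 (SE 0.26, adjusted *p* 0.329) and *Cntnap5a* 0.42 (SE 0.13, adjusted *p* 0.150). Against Egr1 wtNes Cre- mice, *Nlgn1*, *Cntnap2*, *Cntnap4* and *Cntnap5a* had a lower mean level with 1 alteration and a higher one in Egr1cKO mice. The Egr1cKO mean of *Cntnap5c* was not above that of Egr1 wtNes Cre- mice, and *Nlgn3* went the opposite way in both parts. *Nrxn3* gave 0.40, *Cntnap1* 0.31, *Nrxn2* 0.30 and *Nlgn3* -0.28. The median of the 11 relatives was 0.42, against -0.02 for all genes. Of the 9 genes 0 passed with edgeR (0.00543% of all genes). At an unadjusted *p* under 0.05, 6 of the 8 other than *Cntnap5b* were higher and 1 lower (19.2% of all genes). DESeq2 passed 3 of the 9, *Cntnap2* and *Nlgn1* (both adjusted *p* 0.0438) and *Nrxn3* (adjusted *p* 0.0481), where 10.3% of the 3250 genes with an adjusted *p* passed. Its own filter on low levels left *Cntnap5b*, *Cntnap5a*, *Cntnap4*, *Cntnap3* and *Cntnap5c* without an adjusted *p*. With no filter on low counts edgeR passed 1173 genes (3.20% of all genes), among them *Nlgn1* (adjusted *p* 0.000123), *Cntnap2* (0.000259), *Cntnap5c* (0.000388), *Nrxn3* (0.0114) and *Cntnap5a* (0.0175).

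Sex was a separate question. Females against males, with genotype as a covariate, gave *Cntnap5b* 0.03 (SE 0.11, adjusted *p* 0.977), and the 9 genes ran from -0.10 (*Cntnap5a*) to 0.12 (*Cntnap4*). With edgeR 0 of them passed (0.0818% of all genes, 14 in all), 0 were past an unadjusted *p* of 0.05 (6.21% of all genes), and 0 passed with DESeq2 (0.0437% of all genes). In Egr1cKO mice *Cntnap5b* was 17.8 ± 0.790 CPM (SD, n = 3) in females and 14.6 ± 3.03 in males. Against controls of the same sex it gave 0.72 in females and 0.38 in males, a difference of 0.36 (0.22 to 0.51 with 1 Egr1cKO mouse left out) that is given as a description. In females alone *Nrxn2* passed at 0.29 (SE 0.07, adjusted *p* 0.0466), as 1 of 150 genes (0.795% of all genes), and in males alone it gave 0.17 (SE 0.10). For *Nrxn2* the difference between the sexes was 0.12 (SE 0.12, adjusted *p* 0.923) and ran from 0.03 to 0.26 with 1 Egr1cKO mouse left out, so the sexes were not shown to differ. *Cntnap5a* went the other way, with 0.14 in females, 0.35 in males and -0.20 (SE 0.14, adjusted *p* 0.911) for the difference, which ran from -0.26 to -0.10 with 1 Egr1cKO mouse left out. None of the 8 members other than *Cntnap5b* passed this test with edgeR (0.00507% of all genes) or DESeq2 (0.0137% of all genes), and 0 were past an unadjusted *p* of 0.05 (6.09% of all genes).

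The level of *Cntnap5b* went with a broader difference between mice. The summed level of 78 ribosomal protein genes had a mean of 10307 CPM in Egr1 wtNes Cre-, 11242 in Egr1 wtNes Cre+, 11504 in Egr1 fNes Cre- and 9789 in Egr1cKO mice, so that the genotype with the highest *Cntnap5b* had the lowest sum, and the genotype next to it in *Cntnap5b* had the next lowest. The remaining genotypes did not follow this order, as Egr1 fNes Cre- mice had a higher mean than Egr1 wtNes Cre+ mice in both measures. Across the 24 mice the log2 levels of *Cntnap5b* and of the ribosomal sum had a Pearson r of -0.77 and a Spearman rho of -0.77. They are given with no test, since these mice chose the gene and the genotype means differ in both measures. Without the 2 mice farthest from the median sum, r was -0.77. Within the 12 Egr1 wt mice r was -0.65 and rho -0.70, with r at -0.62 without the 2 farthest. Within the 12 Egr1 f mice r was -0.88 and rho -0.82, with r at -0.81 without the 2 farthest. After the mean of each genotype was subtracted from both measures, r was -0.71 and rho -0.66 over the 24 mice, and r was -0.59 without the 2 farthest. Egr1cKO male 3, the lowest of its group in *Cntnap5b*, had the highest ribosomal sum of its group, 11184 CPM, and Egr1 wtNes Cre+ male 2, the highest of its group in *Cntnap5b*, had the lowest sum of all, 8813 CPM.

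**Figure D3:**
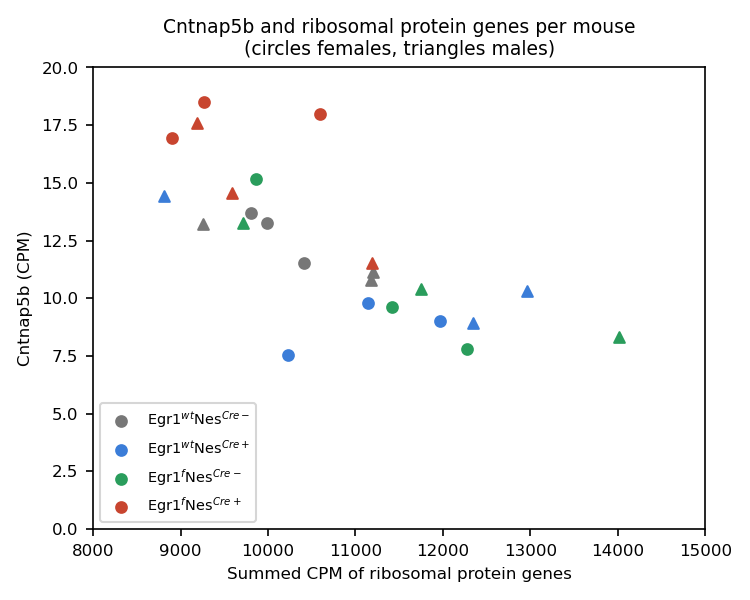
Level of *Cntnap5b* in CPM against the summed CPM of 78 ribosomal protein genes in each of the 24 mice, coloured by genotype, with circles for females and triangles for males. *Cntnap5b* is lower in mice with a higher sum, with r at -0.77 over all mice, and the Egr1cKO mice lie at 11.5 to 18.5 CPM.

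With that sum as a covariate, a setting chosen after seeing the data, the log2FC in Egr1cKO mice against the 18 others was 0.35 for *Cntnap5b*, and the median of the 11 relatives was 0.07, with 9 higher and 2 lower. *Nrxn2* at 0.19 (SE 0.06) and *Cntnap5a* at 0.19 (SE 0.08) kept most of their size, while *Nlgn1* at 0.07 (SE 0.05), *Cntnap2* at 0.11 (SE 0.08), *Nrxn3* at 0.02 (SE 0.05) and *Cntnap1* at 0.02 (SE 0.04) were smaller than without the covariate. The 2 lower ones were *Cntnap5c* at -0.07 and *Cntnap4* at -0.02. None of the 9 passed with edgeR. Against Egr1 wtNes Cre- mice the 11 relatives then had a median of -0.04 in those with Cre alone and -0.04 in those with the floxed allele alone. It was 0.07 in Egr1cKO against Egr1 fNes Cre- mice and 0.18 in the interaction, where *Cntnap5b* gave 0.48. The part of this difference between mice in the result was not otherwise tested.

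Length is a property that the choice of these genes did not use. Of the 12 family genes, 6 span more than 400 kb, with *Cntnap2* at 2245 kb and *Cntnap5b* at 713 kb, whereas *Cntnap1* spans 20.2 kb and *Nlgn3* 26.8 kb. In Egr1cKO mice against the 18 others, the 330 protein-coding genes over 400 kb had a median log2FC of 0.15, the 6350 genes of up to 20 kb a median of -0.05, and the classes between them 0.00, 0.05, 0.09 and 0.11 in order of span. *Cntnap5b* lay above that class, with 8 of the 330 genes higher. In the interaction the longest class had a median of 0.30 and the shortest -0.14. The longest class was at -0.10 in Egr1 wtNes Cre+ and at -0.11 in Egr1 fNes Cre- mice against Egr1 wtNes Cre-. The part of gene length in the results of the family was not tested.

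Gene lists around the family were described in the same comparison, Egr1cKO mice against the 18 others, and in none of them did a gene pass with edgeR (0.00543% of all genes). The 6 contactins, partners of the CNTNAPs, had a median of 0.19, with 5 higher and 1 lower, and the most abundant, *Cntn1*, gave 0.18 (SE 0.08, adjusted *p* 0.293) and *Cntn2* -0.01. The 13 genes of the axonal node had a median of 0.13, with *Ank3* at 0.28 (SE 0.11, adjusted *p* 0.255) and *Nrcam* at 0.21. The 24 ligands and partners of neurexins had a median of 0.13, with *Clstn1* at 0.13 and *Adgrl1* at 0.08. The 2 MDGA genes, whose proteins block neuroligins from binding neurexins, gave 0.15 (*Mdga1*) and 0.05 (*Mdga2*). The 22 other synaptic organizers had a median of 0.11, with *Ptprs* at 0.03 and *Cadm3* at 0.19 (SE 0.05, adjusted *p* 0.179), and the 16 scaffold genes 0.12, with *Dlg4* at -0.02 and *Shank1* at 0.06. The 7 genes of splicing factors, some of which act on neurexin transcripts, had a median of -0.01, with *Rbfox1* at 0.12 and *Nova2* at 0.11. The number at an unadjusted *p* under 0.05 was 1 higher and 0 lower for contactins, 5 and 1 for the node, 7 and 0 for neurexin partners, 0 and 0 for MDGA genes, 3 and 0 for organizers, 6 and 0 for scaffolds, and 0 and 1 for splicing factors, where 15.1% of all genes were past it in either direction. DESeq2 passed 0 genes of these lists (0.182% of all genes).

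Marker lists of cell types are given beside the family for the same comparison, and their part in the result was not tested. With edgeR 0 of these markers passed (0.00543% of all genes) and with DESeq2 1, in the astrocyte list (0.182% of all genes). The 5 oligodendrocyte markers were all lower in Egr1cKO mice, each at an unadjusted *p* under 0.05 (15.1% of all genes), with a median log2FC of -0.24, and *Mbp* at -0.29 (SE 0.10, adjusted *p* 0.223) and *Mobp* at -0.37 (SE 0.11, adjusted *p* 0.201). Their summed level had a mean of 3150 CPM in Egr1 wtNes Cre-, 3589 in Egr1 wtNes Cre+, 3754 in Egr1 fNes Cre- and 2842 in Egr1cKO mice. The lists of other glia and of endothelium were higher in Egr1cKO mice. They were those of oligodendrocyte precursors (3 of 3, median 0.25, *Pdgfra* 0.28 and *Gpr17* 0.25), microglia (3 of 3, 0.21, *Csf1r* and *Cx3cr1* both 0.21), endothelium (3 of 3, 0.29, *Flt1* 0.46 and *Cldn5* 0.12) and astrocytes (4 of 4, 0.14, *Slc1a3* 0.12 and *Gfap* 0.16). The astrocyte gene *Aqp4* gave 0.58 (SE 0.12, adjusted *p* 0.128), and was the marker that passed with DESeq2 (adjusted *p* 0.0336). In Egr1cKO against Egr1 fNes Cre- mice *Aqp4* rose, with a log2FC of 0.82 (SE 0.11, adjusted *p* 0.00776), and was the 1 marker that passed there with edgeR (0.0232% of all genes). DESeq2 passed it too, and also *Mbp* at -0.40 (adjusted *p* 0.0495) and *Mobp* at -0.52 (adjusted *p* 0.0139), where 0.575% of all genes passed. With Cre alone, in Egr1 wtNes Cre+ against Egr1 wtNes Cre- mice with normal *Egr1*, *Aqp4* gave 0.41 (SE 0.10, adjusted *p* 0.581) and *Gfap* 0.33 (SE 0.07, adjusted *p* 0.274), and DESeq2 passed *Gfap* (adjusted *p* 0.00707, 0.139% of all genes). Neuronal markers gave a median of 0.09, with *Snap25* at -0.07 and *Syt1* at 0.09. The median was -0.01 for the dentate gyrus (*Prox1* -0.01, *C1ql2* -0.24), 0.09 for CA1 (*Mpped1* 0.09, *Fibcd1* -0.02), 0.01 for CA2 (*Rgs14* 0.01, *Amigo2* -0.09), -0.01 for CA3 (*Nnat* -0.01, *Grik4* 0.04) and 0.06 for interneurons (*Gad1* 0.08, *Sst* -0.18). Markers of neighbouring tissue gave medians of 0.07 for the thalamus (*Rora* 0.24, *Prkcd* -0.09), 0.27 for the striatum (*Rgs9* 0.00, *Drd1* 0.27), 0.11 for the cortex (*Tbr1* 0.14, *Cux2* 0.15), -0.05 for the hypothalamus (*Avp* 0.50, *Oxt* -0.60), 0.28 for the pituitary (*Tshb* 0.09, *Pomc* 0.47) and -0.04 for the choroid plexus (*Enpp2* -0.04, *Kl* 0.22). The cortex list had its highest sum in Egr1 wtNes Cre+ female 1 at 256 CPM, followed by Egr1cKO male 3 at 164 CPM, with the others at up to 140 CPM. These are the mice with low dentate gyrus sums named above, and each had the lowest *Cntnap5b* of its genotype. A part of tissue content in that was not tested. The choroid plexus list was also uneven among mice, with 4 mice from 431 to 853 CPM in sum and the other 20 at up to 204 CPM. Without those 4, a setting chosen after seeing the data, the relatives had a median of 0.22 in Egr1cKO mice against the others.

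Genes with a pattern most like that of *Cntnap5b* were ranked by Pearson r of the log2 level over the 24 mice, among 19741 other genes. They were *Lrrc8d* (0.928), *Xpot* (0.912), *Map1b* (0.911), *Gpd2* (0.911) and *Tpr* (0.909), and the median over all genes was -0.0600. The mice share their libraries and the differences described above, so r is given as a description. Of the relatives, *Cntnap2* came nearest at 0.858 (rank 125), followed by *Nlgn1* at 0.854, *Cntnap1* at 0.825 and *Nrxn3* at 0.819. *Cntnap5c* stood at 0.753, *Nlgn2* at 0.733, *Nrxn2* at 0.668, *Cntnap4* at 0.632, *Cntnap5a* at 0.604 and *Cntnap3* at 0.289. *Nlgn3* was the 1 of these relatives with a negative value, -0.503. Over the 18 mice without Egr1cKO, *Cntnap2* had 0.797, *Nlgn1* 0.832 and *Nlgn3* -0.360. Of the 5 genes named, 1 was also among the first 5 by Spearman rho and 2 over the 18 mice.

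The libraries were not stranded, so reads of overlapping genes cannot be assigned to a strand. *Cntnap5b* contains 5 other annotated genes, the pseudogenes *Tdpx-ps1*, *Gm19029*, *Gm29668* and *Gm29667* and the unconfirmed transcript *Gm37877*, and the highest of them, *Gm37877*, had a mean of 0.0639 CPM. Within 1 Mb 6 genes were counted, with at most 11 reads in a mouse, too few to be tested. *Cntnap1* overlaps *Plekhh3* on the opposite strand at 11.8 CPM, against 299.9 CPM for *Cntnap1*, and *Nrxn2* overlaps *Gm14964* at 2.63 CPM. Of the 50-base words in exons of *Cntnap5b*, 1.09% also occur in *Cntnap5a* and 0.819% in *Cntnap5c*, and 0% in any other gene of the family.

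The promoter of *Cntnap5b* is printed because EGR1, the factor deleted in these mice, binds GC-rich DNA. The set of RefSeq promoters used here, 250 bases before to 50 after the start, held 6 of the 12 family genes, with 10 windows in all. The letters GCGNGGGCG, a core motif of EGR1, were searched on both strands, as was the GC box GGGCGG, which can overlap it. The first is in 0 of the 10 windows and in 5.55% of all 32851 promoters, and the second is in 4 of the 10 and in 35.7% of all. Its absence says only that these letters are not in these windows. The window of *Cntnap5b* is chr1:99772151-99772450 of GRCm38.p6 on the + strand. It belongs to a RefSeq start that lies before the GENCODE start given above, so the window ends before the latter. It is printed with the GC box, on either strand, in capitals.
Cntnap5b: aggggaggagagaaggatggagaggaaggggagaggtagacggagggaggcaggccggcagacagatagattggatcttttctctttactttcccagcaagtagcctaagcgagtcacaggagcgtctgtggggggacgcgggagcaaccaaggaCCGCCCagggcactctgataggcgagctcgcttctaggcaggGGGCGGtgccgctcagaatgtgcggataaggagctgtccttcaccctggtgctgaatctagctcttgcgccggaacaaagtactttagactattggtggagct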

How the data were processed

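RNA of 24 hippocampi was measured. The authors deposited raw counts of reads per gene and mouse. Per the labels, reads of non-stranded libraries were trimmed with Trim Galore 3.8.2, checked with FastQC and mapped to GRCm38 with STAR 2.7.9. Tests were run on these counts in R 4.3.3 with edgeR 4.0.16 (TMM, filterByExpr with a minimum count of 10, quasi-likelihood F test, Benjamini-Hochberg adjustment), with sex as a covariate between single genotypes and in the interaction of both alterations, genotype as one between the sexes, none against all 18 other mice and 8 group means in the interaction with sex. The tests were run on simulated counts, with genes drawn independently, the same dispersion for all and changes larger than those of the relatives. That run does not give the power or error rate for the differences described here. The SE is the log2FC over the square root of F. Positions and exonic lengths came from GENCODE M21, and log2 levels used a pseudocount of 0.5.

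The members and lists were chosen with earlier results of these data known. Named are the family genes, and from each list the 2 most abundant genes and any that passed with edgeR. A few genes of the family and of the planned lists were left out, and the counts and medians do not include them. Alternatives were DESeq2 1.42.0, its size factors, no low-count filter, other covariates, fits or sexes, the replicate number as a block, and single mice left out in turn (Egr1cKO mice only where all 24 mice were used). The ribosomal covariate, the omission of mice high in choroid plexus markers and the single control genotypes were added after seeing the data.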

Additional observations from a re-analysis of the deposited data

Results flagged for a closer look

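Levels of 13 genes, *Egr1* and the 12 family genes, were examined for a mouse far from the rest of its genotype, in 52 groups of 6 mice, and 2 stood out by Dixon's test, which divides the gap to the nearest mouse by the range of the group. Chance flags about 1 in 20 groups. *Cntnap2* stood at 174.9 CPM in Egr1 wtNes Cre+ male 2, where the nearest mouse of the group had 124.7 CPM (ratio 0.832). *Nlgn2* stood at 368.6 CPM in Egr1cKO female 1, where the nearest had 319.2 CPM (ratio 0.694). Neither cause was tested.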

How the results depend on the processing

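*Egr1* kept its direction in every alternative that was run for the comparisons where it had passed. Of 963 recomputed values of members that had not passed, 17 changed sign. Size factors of DESeq2 in edgeR, a shared fit and sex left out as a covariate moved no count of passing genes by more than 1.5 times. The number of genes that passed did depend on other choices, and the cause was not tested. DESeq2 passed 42 genes in Egr1cKO mice against the 18 others (of the members only *Cntnap5b*, which this comparison chose), 79 in Egr1cKO against Egr1 fNes Cre- mice, 20 for Cre alone (Egr1 wtNes Cre+ against Egr1 wtNes Cre-), 2 for the floxed allele alone (Egr1 fNes Cre- against Egr1 wtNes Cre-), 335 in the interaction of both alterations (3 members) and 5 in that with sex. With no filter on low counts edgeR passed, in the same order, 7, 808 (3 members besides *Cntnap5b*), 156, 163 (1 member), 1173 (4 besides *Cntnap5b*) and 146 genes, and 79 between the sexes.

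For Egr1cKO mice against the 18 others, edgeR passed 3 genes with sex as a covariate, 150 in females alone (1 member, *Nrxn2*), 24 without the mice high in choroid plexus markers and 2 against Egr1 wtNes Cre- mice alone. The median of the members, 0.23, was 0.067 with the ribosomal covariate and 0.10 against Egr1 wtNes Cre- mice alone. For Egr1cKO against Egr1 fNes Cre- mice, 50 genes passed in females, 1 in males, 2 with the ribosomal covariate, where the members' median was 0.080, and 1 without the mice high in choroid plexus markers. With the ribosomal covariate 3 genes passed in Egr1 wtNes Cre+ against Egr1 wtNes Cre- mice, and the members' median was -0.022 in Egr1 fNes Cre- against Egr1 wtNes Cre- mice and 0.20 in the interaction. These covariate, choroid plexus and control settings were chosen after seeing the data.

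With the replicate number as a block within sex (replicate block), 3 genes passed in Egr1cKO mice against the 18 others and 9 against Egr1 fNes Cre- mice, with 0 members in each (edgeR). Mice that share a number share nothing else in the labels. The correlation of same-number mice ran from -0.20 to 0.24 with a median of -0.04, and 4 mice were nearest to a mouse of their own number.

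Leaving out 1 mouse at a time also moved the counts. Against the 18 others they ran from 1 to 215 (0 members besides *Cntnap5b*), with 215 without Egr1cKO male 3, 8 without male 2 and 3 without male 1. Against Egr1 fNes Cre- mice they ran from 2 to 304 (0 to 3 members besides *Cntnap5b*), with 304 without Egr1 fNes Cre- male 1, 10 without Egr1cKO male 2 and 2 without Egr1cKO female 1 or female 3. In Egr1 wtNes Cre+ against Egr1 wtNes Cre- mice they ran from 0 to 229 (members 0 to 1), with 229 without Egr1 wtNes Cre+ male 2 and 1 without male 3. In Egr1 fNes Cre- against Egr1 wtNes Cre- mice they ran from 0 to 1, with 1 without Egr1 fNes Cre- male 1. In the interaction with sex they ran from 0 to 1, with 0 without any 1 of Egr1cKO females 1, 2 and 3 and males 2 and 3. The log2FC of *Cntnap5b* in Egr1cKO mice against the 18 others ran from 0.35 to 0.72 over 11 other settings.

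The counts limit what can be seen. *Cntnap5b* had 157 to 472 reads in a mouse and *Cntnap3* 71 to 278, so their differences are less precise than those of *Nrxn2* or *Cntnap1*. Isoforms, cell types and proteins were not measured.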
